A study of Mus musculus with 2 samples.

Results

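Nuclei gated on the markers of oligodendrocyte precursor cells (OPCs) numbered 689 of the 10329 nuclei kept in a single-nucleus ATAC-seq series of sham and stroke mouse brain. Members were chosen from their own reads: fragments over the bodies and 2 kb upstream of 11 marker genes were counted in each nucleus and set against the number that its depth would give at the rate of all kept nuclei. A nucleus was a member with at least 5 such fragments and an excess of at least 3 times the square root of the expected number. The sham library held 385 members and the stroke library 304. The label was borne out for a minority of them. As a group, the 221 members that also passed the same gate on the 8 markers with compact loci had more open chromatin at further OPC genes than other nuclei, and 120 of them passed a gate on those genes. The other 468 as a group had ratios near 1 at those genes, and 54 of them passed that gate. The 2 sets are called compact-marker nuclei and long-gene nuclei here, and the split was made after the values had been seen.

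OPCs are dividing glia spread through grey and white matter that give rise to the myelinating oligodendrocytes. They are known by the PDGF receptor alpha (Pdgfra), through which PDGF-A drives their division, by the NG2 proteoglycan (Cspg4), and by the transcription factors Olig1, Olig2 and Sox10, which specify the lineage and later direct the myelin genes. After brain injury OPCs divide, move to the lesion and surround it together with reactive astrocytes and microglia.

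Both libraries came from wild-type, young adult male C57BL/6J mice, collected 48 h after surgery. The sham library pooled nuclei of 4 flash-frozen brains, and the stroke library pooled the ipsilateral hemispheres of 4 brains in which the middle cerebral artery had been occluded for 1 h and reperfused. With 1 library per condition and no label that ties a nucleus to an animal, condition, library and the difference in dissected tissue cannot be told apart, and no difference below has a replicate check or a test. Intervals are exact 95% intervals, cover counting error only, and treat fragments as independent. Accessibility is given as CPM, the fragments over a gene's body and 2 kb upstream per 1000000 fragments of the nuclei named, which is not scaled to gene length, so values are compared within a gene. The kept nuclei held a median of 11528 fragments in sham and 11218.5 in stroke, with 39.3% and 33.7% of fragments in peaks. The libraries shared 34 barcodes among kept nuclei, and 4 members carried one of them. No doublets were removed.

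The markers did not weigh equally in the gate. Of the 55270 marker fragments in all kept nuclei, 38.8% fell on Megf11, an EGF-repeat gene whose locus spans 323580 bp, and 30.6% on Lhfpl3, a tetraspan gene spanning 529539 bp. Cspg4 took 11.5%, Vcan, the matrix proteoglycan versican, 5.57%, Pdgfra 4.39% and Matn4, a matrilin of the matrix, 2.97%. C1ql1, Neu4, Gpr17, Olig1 and Olig2 each took at most 1.64%. Megf11 was the locus with the largest excess in 317 members and Lhfpl3 in 228, against 85 for Cspg4 and 20 for Pdgfra. Among the 221 compact-marker nuclei Cspg4 led more often than any other locus, in 76, with Lhfpl3 in 51 and Megf11 in 50. Of these 76, 29 passed the gate on the further OPC genes. Members held a median of 18 marker fragments in sham (5 to 70) and 16 in stroke (5 to 53), where the expected medians were 5.46 and 4.92. At the edge of the gate, a sham nucleus with 15 fragments and 7.03 expected scored 3.007 and was kept, and a stroke nucleus with 15 fragments and 7.05 expected scored 2.992 and was left out.

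**Figure D1:**
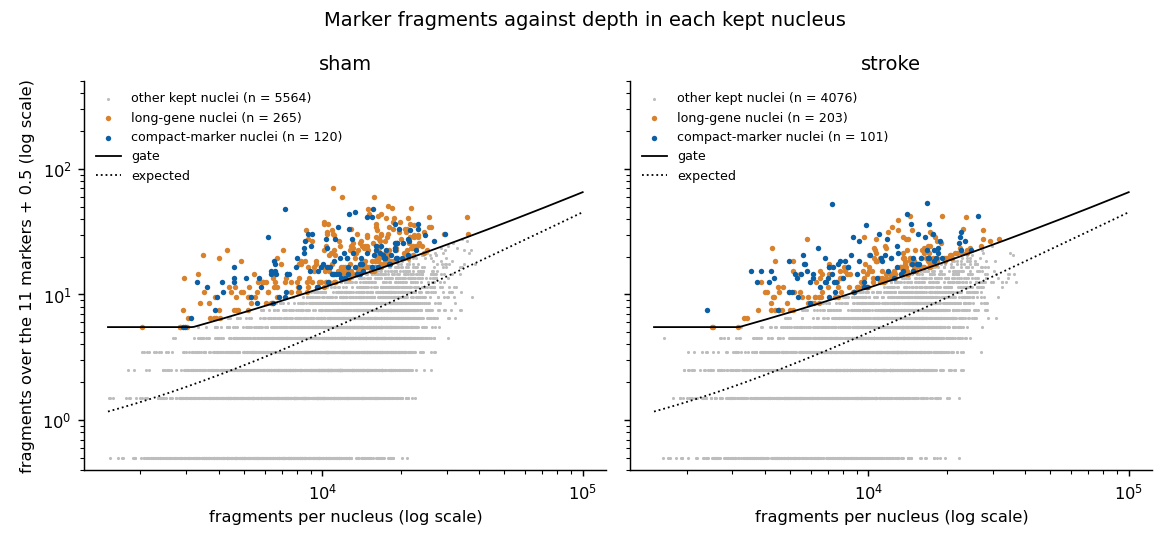
Fragments over the 11 markers (y axis, plus 0.5, log scale) against all fragments of a nucleus (x axis, log scale) for every kept nucleus, with the expected number dotted and the gate as a solid line. The 120 sham and 101 stroke compact-marker nuclei overlap with the 265 and 203 long-gene nuclei in depth and in marker fragments.

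The compact-marker nuclei hit a median of 5 of the 11 loci in sham and 6 in stroke, and the long-gene nuclei 3 in each library, against 2 in the other kept nuclei. In long-gene nuclei the leading locus alone held a median of 81.8% of the marker fragments in sham and 70.6% in stroke, against 47.8% and 38.5% in compact-marker nuclei. Long-gene nuclei are the members that failed the gate on the compact loci. Loci hit and the share of the leading locus are read on the marker fragments that made the gate and this split. Their differences between the groups are thus no finding. Median depth was 11776 and 9610 fragments in compact-marker nuclei and 12665 and 11555 in long-gene nuclei, sham first. Fragments in peaks were 39.0% and 34.5% in compact-marker nuclei, 36.1% and 32.2% in long-gene nuclei, and 39.6% and 33.8% in the other kept nuclei.

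As a description of what chose them, the markers in compact-marker nuclei stood well above the other kept nuclei of the same library. Pdgfra was at 153 CPM against 15.9 in sham (9.62 times) and 140 against 17.7 in stroke (7.88 times). Cspg4 was at 457 against 41.5 CPM in sham and 353 against 45.1 in stroke. Gpr17, a receptor that marks precursors committed to differentiate, was 16.8 and 12.9 times higher, Neu4, a sialidase, 10.5 and 7.92 times, Olig2 8.56 and 8.42 times, and Olig1 7.12 and 6.13 times. In long-gene nuclei the order was another one: Megf11 was 6.75 and 4.87 times and Lhfpl3 4.87 and 3.89 times the other nuclei, while Pdgfra was 1.14 and 1.55 times, Cspg4 1.23 and 1.43 times, and C1ql1, a secreted complement-related protein, 0.91 and 1.51 times. Long-gene nuclei were set apart by failing the gate on the compact loci, so their low values there follow from that split. A gate that leaves out the marker being read gives values it did not use. Read in this way in all kept nuclei that passed such a gate, each of the 11 markers stayed above the other nuclei in both libraries. Gpr17 was at 4.22 and 5.32 times, Neu4 at 3.27 and 2.95, Olig2 at 3.45 and 2.89, and Pdgfra at 1.90 and 2.81. Cspg4 was at 1.70 and 1.80, Lhfpl3 at 1.43 and 1.59, Megf11 at 1.47 and 1.28, and Vcan at 1.24 and 1.41. Olig1 and Olig2 lie close together on chromosome 16, so leaving out 1 of them kept its neighbour in the gate. The values of Olig1 and Olig2 are thus not free of the choice.

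The sets separated at 17 further genes of OPCs that the gate did not use. In compact-marker nuclei 12 of the 17 were at least 1.5 times the level of the other kept nuclei in both libraries, where 2.84% of all genes tested away from the markers reached this. In long-gene nuclei 0 of 17 did, against 0.162% of genes, and over all members 5 of 17 did, against 0.425%. The member count fell without nuclei that pass another gate and rose with windows at start sites, as the closing section gives. The median ratio of the 17 genes was 1.83 in sham and 2.28 in stroke in compact-marker nuclei, and 0.998 and 1.09 in long-gene nuclei. Lims2, listed with these genes, overlaps the Gpr17 window and was not counted. Summed over 18 genes, with Lims2, compact-marker nuclei had 2467 CPM in sham and 2725 in stroke. Nuclei outside the members that passed a gate of the same form on astrocyte genes had 1663 and 1886. For such a gate on oligodendrocyte genes the sums were 1321 and 1504, and for all other kept nuclei 1313 and 1387.

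Among the transcription factors of this list, Nkx2-2, which acts in the step from precursor to oligodendrocyte, was at 52.1 CPM against 11.3 in sham and 81.4 against 18.1 in stroke. Its ratio was 4.60 (3.59 to 5.82) in sham and 4.49 (3.58 to 5.58) in stroke. Sox10 was at 29.7 against 9.97 CPM in sham, a ratio of 2.98 (2.15 to 4.05), and at 70.6 against 10.6 in stroke, a ratio of 6.65 (5.18 to 8.44). Sox6, which holds precursors in the undifferentiated state, was 3.18 and 2.39 times higher, and Sox8, a relative of Sox10, 1.68 and 1.73 times. In long-gene nuclei Nkx2-2 was at 0.90 and 1.13 times the other nuclei, Sox10 at 1.34 and 0.96, and Sox6 at 0.86 and 1.15. The ratios of 16 of the genes there ran from 0.80 to 1.34 in sham and from 0.87 to 1.21 in stroke, and the remaining gene is not reported here.

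The matrix, membrane and signalling genes of the list followed the same split. Rlbp1, a retinaldehyde-binding protein, was 3.48 and 4.04 times the other nuclei in compact-marker nuclei. Afap1l2, an actin filament adaptor, was 2.68 and 2.48 times, Cacng4, an auxiliary subunit of AMPA receptors, 2.23 and 2.60 times, and Ptprz1, a receptor phosphatase that binds matrix, 2.31 and 2.55 times. Bcan, the proteoglycan brevican, was 2.46 and 1.51 times, Tnr, tenascin-R, 1.67 and 1.88 times, Xylt1, which starts glycosaminoglycan chains, 1.83 and 1.81 times, and Susd5 1.74 and 3.38 times. Those that missed the mark in at least 1 library included Pcdh15, Luzp2, Emid1 and Cspg5. Pcdh15, a protocadherin gene of 1550396 bp, was at 1.16 and 1.28 times.

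**Figure D2:**
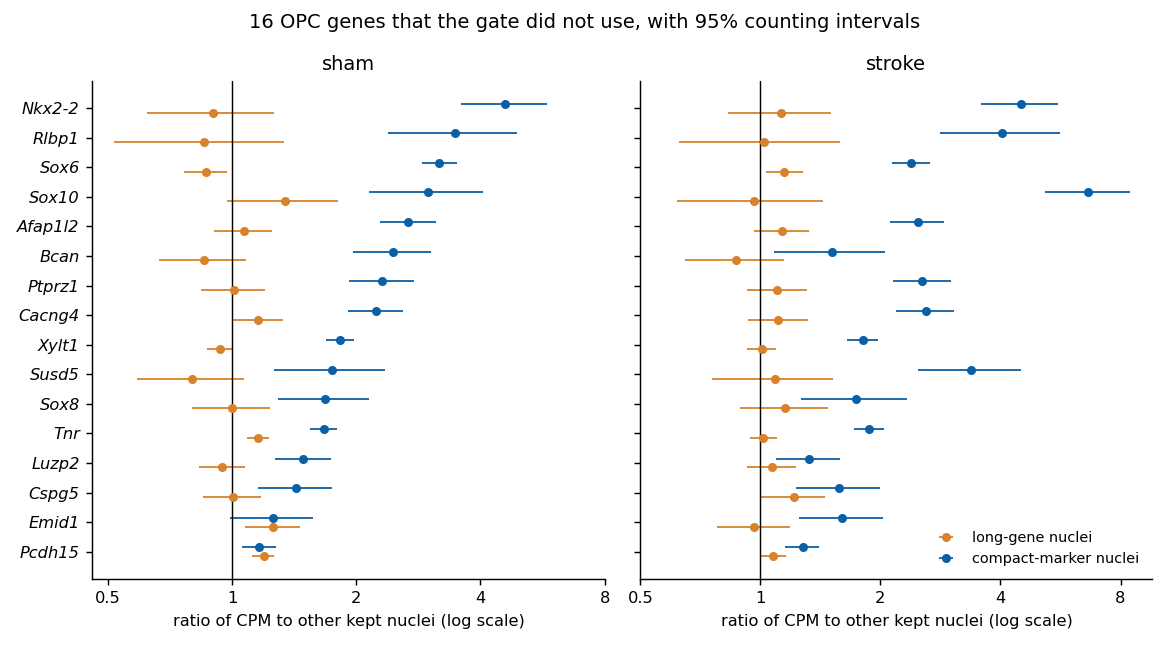
Ratio of CPM in compact-marker nuclei (blue) and long-gene nuclei (orange) to the other kept nuclei of the same library at 16 of the 17 OPC genes not used by the gate, on a log axis, with 95% counting intervals as lines. The compact-marker nuclei reach 4.60 in sham (Nkx2-2) and 6.65 in stroke (Sox10), while the long-gene nuclei lie between 0.80 and 1.34.

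A gate of the same form on the 17 genes was also read per nucleus. It was passed by 52.5% of compact-marker nuclei in sham (63 of 120) and 56.4% in stroke (57 of 101). Long-gene nuclei passed it in 12.5% and 10.3%, and the other kept nuclei in 7.60% and 7.63%. The nuclei that passed numbered 174 among members and 734 outside them. The genes did not weigh equally in this gate either. Of 1300 CPM summed over the 17 genes in the other sham nuclei, Tnr had 286, Pcdh15 266 and Xylt1 244. Passing it is thus weak evidence on the identity of a single nucleus.

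Fragments were also laid out differently along the loci. Within a locus, the 10% of 500 bp bins with the most fragments in the other kept nuclei were taken. They were picked by the fragments of those nuclei, so the share of those nuclei is raised by the choice. Sites open in OPCs alone can fall outside them. At Megf11 these bins held 42.6% of the fragments of other kept nuclei in sham and 40.6% in stroke. In the members whose largest excess was at Megf11 they held 15.7% and 19.1%, and in the remaining members 37.2% and 39.1%. At Lhfpl3 the shares were 18.7% and 20.6% in members led by it, against 41.9% and 38.4% in the other kept nuclei. Members led by Cspg4 (11.8% and 20.8%, against 39.1% and 33.1%) and by Pdgfra (17.5% and 20.6%, against 48.7% and 47.6%) had low shares as well. The remaining members had 36.6% and 35.8% at Lhfpl3, 25.1% and 23.5% at Cspg4, and 46.6% and 38.3% at Pdgfra. In stroke the intervals of led and remaining members overlapped at Cspg4 (16.1 to 26.3 against 18.8 to 28.8) and at Pdgfra (8.70 to 37.9 against 31.3 to 45.7). Compact-marker nuclei that passed the further gate had 32.7% and 32.6% at Megf11 and 16.6% and 22.2% at Cspg4. All compact-marker nuclei together had 13.3% and 20.1% at Cspg4. Nuclei were grouped here by the same fragments, so the excess itself is what chose them. What was measured is its spread over the locus outside the bins most covered in the other kept nuclei.

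In steps of 50 kb, the long-gene nuclei were above the other nuclei across the whole of Megf11, by up to 7.01 times between 150 and 200 kb from the start site. The excess went beyond the window of the gate, with 3.17 times at 50 to 100 kb before the start. At Pdgfra the compact-marker nuclei reached 8.56 times in the first 50 kb. The values inside the windows, 7.01 and 8.56, are of the fragments that chose the nuclei, and long-gene nuclei were set apart by failing the gate on Pdgfra and the other compact loci, so their low values there are no finding. Outside the window, compact-marker nuclei were at 4.15 times (3.42 to 5.01) in a step that began 800 kb before the Pdgfra start. They were at 4.50 times (3.62 to 5.55) between 150 and 200 kb after it. Long-gene nuclei were at 1.03 (0.79 to 1.32) and 1.27 (0.97 to 1.64) times in these steps. At Megf11 the excess of chosen nuclei passed the window. Values beside the Pdgfra window are thus not free of the choice either, and the gap between the sets there is a description.

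**Figure D3:**
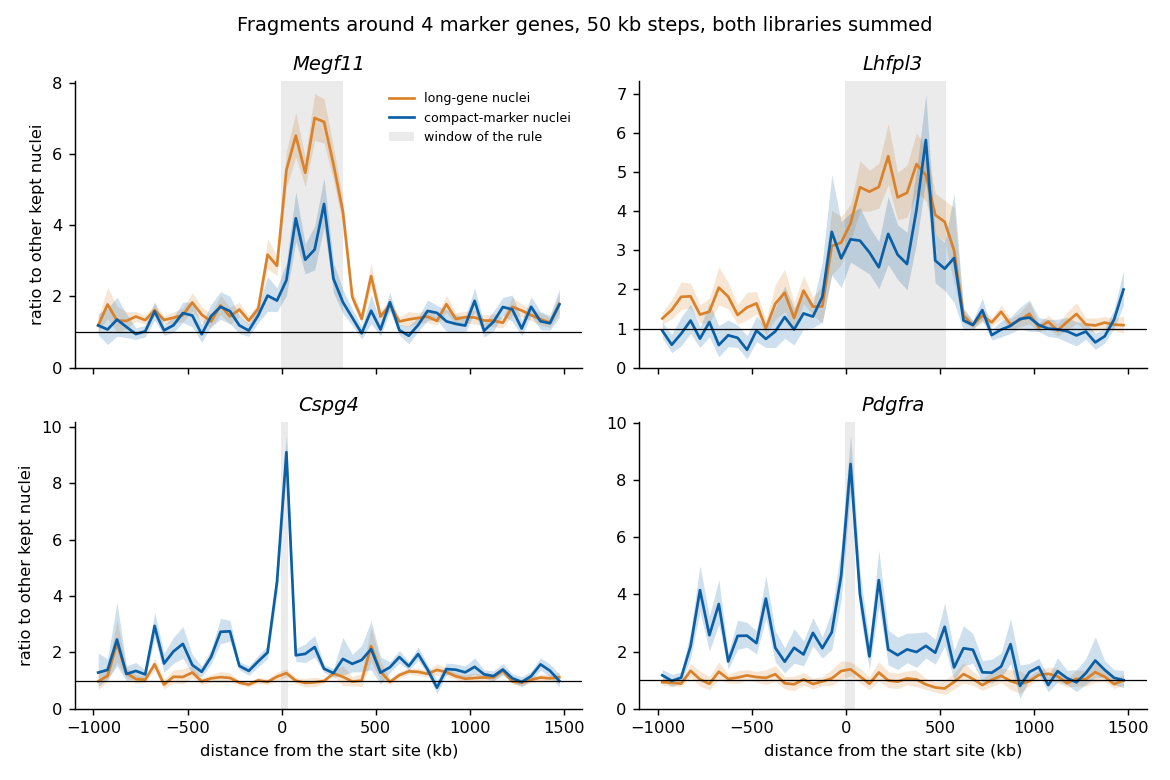
Ratio of depth-scaled fragments in compact-marker nuclei (blue) and long-gene nuclei (orange) to the other kept nuclei in 50 kb steps by distance from the start site of 4 markers, both libraries summed, with 95% counting intervals shaded and the window of the gate in grey. Values inside the grey window, up to 7.01 at Megf11 and 8.56 at Pdgfra, are of the fragments that chose the nuclei. Outside the window, the compact-marker nuclei are at 4.15 in a step that began 800 kb before the Pdgfra start, which is not their highest value there. Values beside a window are not free of the choice either.

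Lists of other cell types were read in the same nuclei. In compact-marker nuclei, 9 of 15 oligodendrocyte genes and 4 of 10 genes of committed precursors were at least 1.5 times the other kept nuclei in both libraries, again against 2.84% of all genes. Bcas1, a mark of newly formed oligodendrocytes, was at 75.0 against 22.6 CPM in sham and 133 against 28.4 in stroke, and Tns3, a focal adhesion protein of the same stage, was 2.97 and 2.24 times higher. Ugt8a, which makes the myelin lipid galactosylceramide, was 3.26 and 2.74 times higher, Cldn11, the tight junction claudin of myelin, 2.53 and 3.71 times, and Myrf, the regulator of myelin genes, 1.74 and 3.22 times. Mbp, myelin basic protein, was at 1.03 and 1.05 times, and Aspa, an enzyme of mature oligodendrocytes, at 0.22 (0.01 to 1.26) and 0.46 (0.06 to 1.68) times. Summed over the 15 oligodendrocyte genes, compact-marker nuclei had 444 CPM against 324 in sham and 592 against 338 in stroke.

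Of 13 astrocyte genes, 2 were at least 1.5 times higher in both libraries, the water channel Aqp4 (17.6 against 6.42 CPM and 20.6 against 12.3) and the FGF receptor Fgfr3 (2.56 and 1.73 times). The astrocyte list summed to 755 CPM against 576 in sham and 621 against 637 in stroke. No gene of the lists for glutamatergic neurons (8 genes), GABAergic neurons (12), myeloid cells (14) or vascular and leptomeningeal cells (15) reached 1.5 times in both libraries, and none was at 0 in both libraries. The glutamatergic list summed to 458 against 577 CPM in sham and 299 against 506 in stroke, the GABAergic list to 345 against 400 and 432 against 392, the myeloid list to 385 against 380 and 339 against 430, and the vascular list to 234 against 215 and 260 against 254. Gates of the same form on 6 lists of other cell types were passed by 39.2% of compact-marker nuclei in sham and 35.6% in stroke, 32.1% and 32.0% of long-gene nuclei, and 35.6% and 37.3% of the other kept nuclei. For compact-marker nuclei the oligodendrocyte gate took 12.5% and 18.8%, against 4.96% and 5.52% of the other kept nuclei. The astrocyte gate took 13.3% and 6.93% of them, against 7.75% and 12.02% of the other kept nuclei. In long-gene nuclei 0 genes of these lists reached 1.5 times in both libraries. The part of other cell types and of doublets in these values was not tested.

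Lists of function showed where else compact-marker nuclei differed. Of 18 lineage transcription factors 9 were at least 1.5 times the other nuclei in both libraries, where 2.84% of all genes were, among them Zfp488 (6.32 and 7.56 times), a co-repressor partner of Olig2, and the Notch effector Hes1 (1.99 and 1.89 times). Of 16 genes of the extracellular matrix 7 were, with the proteoglycan aggrecan, Acan, at 2.66 and 1.64 times, the link protein Hapln1 at 2.61 and 2.21 times and the sulfotransferase Chst3 at 2.37 and 2.93 times, while Ncan, neurocan, was at 0.80 and 0.48 times. Of 12 growth factor receptors the 2 were Fgfr3 and the neuregulin receptor Erbb3 (2.32 and 4.09 times). Several genes stand in more than 1 of these lists. Summed over the 18 transcription factors, the astrocyte gate outside the members had 1749 CPM in sham and 2116 in stroke. Compact-marker nuclei had 1827 and 2108, and the other kept nuclei 1159 and 1331. This summed level was thus not particular to compact-marker nuclei.

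Across all genes more than 1 Mb from a marker, 217 of 14171 were at least 2 times higher in sham compact-marker nuclei than in the other sham nuclei. Of these 41% were again at least 2 times higher in stroke, where 1.64% of all genes were. In long-gene nuclei 26 of 16078 genes were at least 2 times higher in sham. Of these 26, 2 (7.69%) were again in stroke, where 0.187% of all genes were. In each pair the picked genes and all genes were not matched for coverage. The gap between these shares is thus no measure of how far an excess returned in stroke. The leading compact-marker genes by the lower bound of the sham ratio included, beside Nkx2-2, Sox6, Bcas1 and Tns3, the tetraspanin Cd9 with 58.8 against 15.7 CPM in sham (3.74 times) and 2.83 times in stroke. Gpr37l1, a glial receptor, was at 3.75 and 2.66 times, and Pllp, plasmolipin of myelin membranes, at 3.25 and 4.24 times. These genes were picked for display after their sham values had been seen, and their stroke values were not used to pick them.

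Open sites were read in 500 bp bins outside the marker windows. Bins were chosen in the sham library, with at least 10 cut sites and at least 4 times the rate of the other sham nuclei, and then read in the stroke library, which had no part in the choice. Of 3804 bins chosen in compact-marker nuclei more than 1 Mb from a marker, 61.8% were at least 2 times higher in the stroke compact-marker nuclei, against 15.4% of all bins with enough cut sites. Over all members the share was 28.2% of 8124 bins against 7.76%, and in long-gene nuclei 20% of 5245 bins against 6.31%. The member share was higher with a minimum of 20 cut sites, as the closing section gives. In each pair the chosen bins and all bins were not matched for coverage. The gap between the shares alone is thus no measure of how far an excess returned in stroke. The pooled ratios do not use this background. Pooled over the chosen bins, stroke compact-marker nuclei were 3.75 (3.71 to 3.79) times the other stroke nuclei and stroke long-gene nuclei at their own bins 1.06 (1.03 to 1.08) times.

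The 3804 bins were next read in other stroke nuclei. They stood at 5.89 times in the compact-marker nuclei that also passed the further gate and at 3.66 times in those that passed no other gate. Long-gene nuclei were at 1.19 times, nuclei of the oligodendrocyte gate outside the members at 1.46 times, and those of the astrocyte gate at 2.93 times. The chosen bins lay mostly away from promoters: 6.15% were within 1 kb of a start site, against 43.2% of all compact-marker bins with enough cut sites, and the median distance was 27503.5 against 2989.5 bp.

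**Figure D4:**
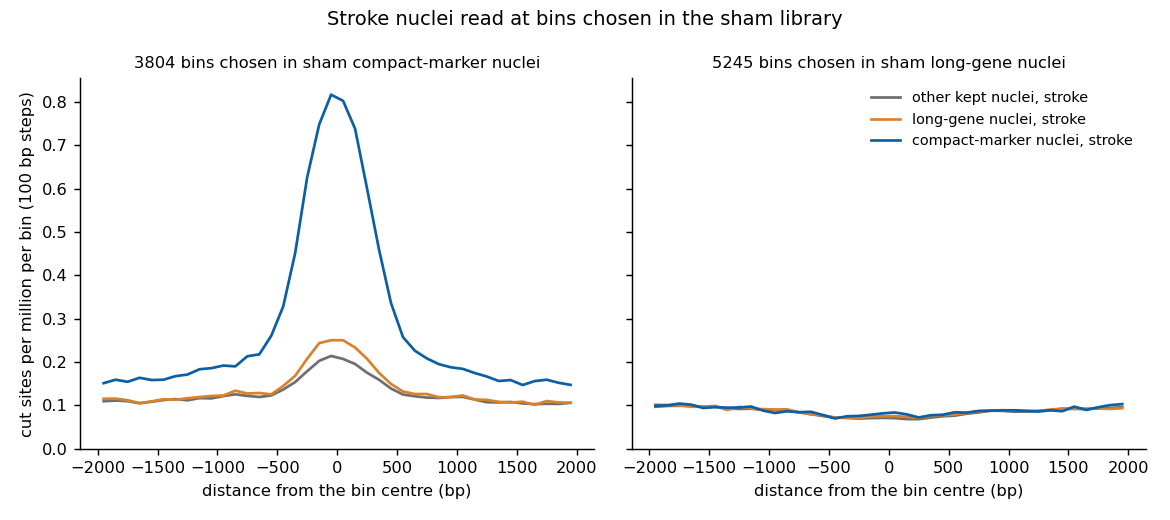
Cut sites per 1000000 cut sites per bin in stroke nuclei, in 100 bp steps by distance from the bin centre, at 3804 bins chosen in sham compact-marker nuclei (left) and 5245 bins chosen in sham long-gene nuclei (right). On the left the compact-marker nuclei peak at 0.817, the long-gene nuclei at 0.251 and the other kept nuclei at 0.214, and on the right the lines lie together.

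The sequences of 7 such bins are shown, picked by the lower bound of their sham excess. Bins of chromosomes 18 and X were left out of the ranking, so these are not the leaders of the whole genome. The first 6 led the ranking by that bound among the remaining bins with at least 10 sham nuclei. The rule of 10 nuclei was added after the data had been seen. The bin at the start of Gjc3 was the leading promoter bin under the same limits. Each is 300 bases of the mm10 (GRCm38) genome, plus strand, centred on the median cut site of the compact-marker nuclei, with matches to the motifs named below in capitals.
Kiz bin, chr2:146710722-146711021, plus strand: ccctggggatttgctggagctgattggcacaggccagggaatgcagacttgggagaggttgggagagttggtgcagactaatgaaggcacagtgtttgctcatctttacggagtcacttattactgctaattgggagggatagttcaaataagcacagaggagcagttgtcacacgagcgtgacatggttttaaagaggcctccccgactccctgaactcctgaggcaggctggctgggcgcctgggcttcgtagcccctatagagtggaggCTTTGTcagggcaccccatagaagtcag
Atp6ap1l bin, chr13:90846151-90846450, plus strand: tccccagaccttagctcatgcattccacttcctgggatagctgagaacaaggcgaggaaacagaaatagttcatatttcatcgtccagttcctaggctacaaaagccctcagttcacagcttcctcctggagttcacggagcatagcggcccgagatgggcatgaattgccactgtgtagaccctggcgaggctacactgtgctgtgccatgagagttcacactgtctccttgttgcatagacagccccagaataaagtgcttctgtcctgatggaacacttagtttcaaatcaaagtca
Mmp16 bin, chr4:18170108-18170407, plus strand: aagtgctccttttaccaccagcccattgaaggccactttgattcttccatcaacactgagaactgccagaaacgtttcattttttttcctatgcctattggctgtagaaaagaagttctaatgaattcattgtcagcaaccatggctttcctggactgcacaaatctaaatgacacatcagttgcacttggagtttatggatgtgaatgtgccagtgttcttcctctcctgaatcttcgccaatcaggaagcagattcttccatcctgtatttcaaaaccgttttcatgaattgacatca
Pik3r1 bin, chr13:101470645-101470944, plus strand: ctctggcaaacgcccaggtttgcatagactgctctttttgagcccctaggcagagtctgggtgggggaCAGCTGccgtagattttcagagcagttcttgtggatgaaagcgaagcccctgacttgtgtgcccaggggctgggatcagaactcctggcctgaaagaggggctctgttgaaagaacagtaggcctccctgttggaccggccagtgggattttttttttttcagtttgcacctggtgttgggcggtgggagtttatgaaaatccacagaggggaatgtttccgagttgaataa
Arl4c bin, chr1:88840121-88840420, plus strand: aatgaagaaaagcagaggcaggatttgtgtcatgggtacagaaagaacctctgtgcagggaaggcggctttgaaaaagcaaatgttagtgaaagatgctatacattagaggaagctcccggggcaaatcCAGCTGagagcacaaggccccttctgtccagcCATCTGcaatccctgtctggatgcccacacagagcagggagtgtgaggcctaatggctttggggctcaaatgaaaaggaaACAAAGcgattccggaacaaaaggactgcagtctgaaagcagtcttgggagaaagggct
Glt28d2 bin, chr3:85928187-85928486, plus strand: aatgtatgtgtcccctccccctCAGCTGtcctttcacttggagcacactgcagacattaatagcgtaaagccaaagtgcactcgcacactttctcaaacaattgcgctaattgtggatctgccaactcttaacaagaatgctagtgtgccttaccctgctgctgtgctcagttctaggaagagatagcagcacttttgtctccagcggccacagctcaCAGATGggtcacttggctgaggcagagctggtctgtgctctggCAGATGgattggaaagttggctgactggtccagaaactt
Gjc3 bin, chr5:137963080-137963379, plus strand: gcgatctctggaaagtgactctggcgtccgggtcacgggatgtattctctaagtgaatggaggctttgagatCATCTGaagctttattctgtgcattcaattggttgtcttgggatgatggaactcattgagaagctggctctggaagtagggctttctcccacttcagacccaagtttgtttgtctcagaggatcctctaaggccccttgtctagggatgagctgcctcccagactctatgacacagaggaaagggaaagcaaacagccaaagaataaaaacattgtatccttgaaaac

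The Pik3r1 bin, chr13:101470501-101471000, lies in intergenic sequence 297466 bp from the start of Pik3r1, a PI3-kinase regulatory subunit. It had 31 cut sites in 15 sham compact-marker nuclei, 40.3 times (24.0 to 67.3) the other sham nuclei, and 12 cut sites in 7 stroke nuclei, 32.2 times (13.9 to 72.5). Long-gene nuclei with a cut there numbered 2 in each library. The Arl4c bin, chr1:88840001-88840500, is intergenic as well and was at 35.3 times in sham (45 cut sites, 19 nuclei) and 23.8 times in stroke (30 cut sites, 9 nuclei). The Glt28d2 bin, chr3:85928001-85928500, was at 36.8 times in sham (38 cut sites, 15 nuclei) and 22.5 times in stroke (31 cut sites, 15 nuclei). The Kiz bin, chr2:146710501-146711000, intergenic and named for its nearest gene, had the highest sham value of the 7, 69.1 times (41 cut sites, 18 nuclei), and 37.3 times in stroke (20 cut sites, 9 nuclei). The Atp6ap1l bin, chr13:90846001-90846500, was at 61.4 times in sham and 30.5 times in stroke (11 nuclei in each), and the Mmp16 bin, chr4:18170001-18170500, at 49.0 times (14 nuclei) and 25.2 times (9 nuclei). Both are intergenic, and their printed sequences hold none of the motifs. The bin at the start of Gjc3, a connexin of oligodendrocyte-lineage glia, chr5:137963001-137963500, was at 34.9 times in sham (23 cut sites, 11 nuclei) and 28.6 times in stroke (18 cut sites, 8 nuclei). All 7 sites were thus seen in 7 or more nuclei of each library.

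Letters of 5 motifs were searched on both strands in bins of 500 bp, each search on its own so that matches can overlap. ACAAAG, the core bound by SOX factors, was in 40.5% of the 3804 chosen bins and in 27.6% of all compact-marker bins with enough cut sites. The E-box CAGCTG was in 42.7% against 30.3%, and CATCTG, an E-box that OLIG factors can bind, in 38.6% against 29.0%. TGANTCA, the AP-1 site, was in 13.8% against 11.7%, and the NFI palindrome in 0.105% against 0.0652%. In the bins chosen in long-gene nuclei ACAAAG was in 36.4% against 30.7%, CAGCTG in 25.97% against 29.9% and CATCTG in 37.6% against 34.7%. ACAAAG and CATCTG were thus more frequent than in the background in both sets of chosen bins. G and C made up 50.9% of the chosen compact-marker bins and 56.9% of all of them. Bins within 1 kb of a start site were 6.15% of the chosen and 43.2% of all of them. The part of base content and of distance from start sites in these shares was not tested. On the printed strand ACAAAG also reads CTTTGT and CATCTG also reads CAGATG.

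The share of kept nuclei that passed the gate was 6.47% (5.86 to 7.13) in sham and 6.94% (6.21 to 7.73) in stroke, a stroke over sham ratio of 1.07 (0.92 to 1.25). Compact-marker nuclei made up 2.02% (1.68 to 2.41) and 2.31% (1.88 to 2.79), a ratio of 1.14 (0.869 to 1.502), and long-gene nuclei 4.45% and 4.63%, a ratio of 1.04 (0.86 to 1.25). The intervals of these ratios include 1. This covers these sets only, as no ratio interval is given for the other gates below. The direction depends on the gate: with a threshold of 4 the member share was 4.64% in sham and 4.22% in stroke, with the long genes left out 3.68% and 4.86%, and without nuclei in which 1 marker held over 50% of the marker fragments 1.71% and 2.76%. A share depends on all other nuclei kept, so more OPCs and fewer other nuclei cannot be told apart.

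Between stroke and sham members, few genes differed by 2 times or more, and the summed level of a list of reactive glia genes was higher in stroke. Among 13535 genes with at least 100 fragments over both libraries, 60 were higher in stroke by 2 times or more (0.443%) and 40 lower (0.296%), with a median log2 ratio of -0.09. The minimum is on the sum of the libraries, so a gene can pass it through the library in which it is high, and the genes named below are descriptions that the minimum helped to choose. Scaled to fragments within 1 kb of start sites, 100 were higher and 24 lower, and with at most 3 fragments counted per nucleus and gene 39 were higher and 5 lower. With windows of 1 kb on either side of start sites the balance turned, with fewer genes higher than lower, as the closing section gives. In compact-marker nuclei 29 of 6100 genes were higher (0.475%) and 96 lower (1.57%).

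Of 21 reactive glia genes, 12 had 100 fragments over both libraries, and 6 of these were at least 2 times higher in stroke members. Of these, Lgals3 (33 sham and 73 stroke fragments), Serpina3n (37 and 63), Cebpd (41 and 74) and Osmr (49 and 77) would not have reached 100 at their sham level, and the count of 6 is a description with no weight of its own. With no minimum 9 of the 21 were higher by the fold, as were 1979 of all 21017 genes. The calls at single genes fell to 1 without nuclei that pass the gate of another cell type, 1 with windows of 1 kb on either side of start sites, 2 with a threshold of 4 and 0 after nuclei were thinned to 5000 fragments. Socs3, which damps cytokine signalling through JAK and STAT, went from 15.3 to 36.7 CPM (75 and 131 fragments), a log2 ratio of 1.27 (0.85 to 1.70), and was hit in 14.8% of sham and 28.9% of stroke members. Bcl3, a nuclear partner of NF-kB, went from 16.9 to 35.6 CPM, a log2 ratio of 1.08 (0.67 to 1.49), with hits in 12.2% and 27.6% of members. Cebpd, an acute-phase transcription factor, went from 8.34 to 20.8 CPM, a log2 ratio of 1.32 (0.75 to 1.90). Serpina3n, a secreted protease inhibitor of reactive glia, was at 7.53 and 17.7 CPM (1.23), Osmr, the oncostatin M receptor, at 9.97 and 21.6 CPM (1.12), and Lgals3, galectin-3, at 6.71 and 20.5 CPM (1.61, with log2 ratios in parentheses). The 6 not past the fold included Cd44, the hyaluronan receptor, at 24.0 and 41.8 CPM, Gfap, the intermediate filament of astrocytes, at 23.6 and 30.6, Stat3 at 64.7 and 77.7, and the metallothionein Mt1 at 19.3 and 19.1.

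Summed over all 21 genes of the list, members went from 290 to 459 CPM, a log2 ratio of 0.66 (0.56 to 0.76). Compact-marker nuclei went from 316 to 529 CPM (0.75, 0.57 to 0.92), although 1 gene alone had 100 fragments there and it was not past the fold. The same sum was higher in stroke in other nuclei too: the log2 ratio was 0.61 (0.48 to 0.74) in long-gene nuclei, 0.78 (0.66 to 0.91) in the oligodendrocyte gate, 1.07 (1.001 to 1.15) in the astrocyte gate and 0.52 (0.49 to 0.55) in the other kept nuclei, where 6 of 21 genes were at least 2 times higher against 1.49% of all genes. Bcl3 had a log2 ratio of 1.08 in members, 1.66 in the oligodendrocyte gate, 3.63 in the astrocyte gate and 1.44 in the other nuclei. For Lgals3 the order differed, with 1.61 in members, 0.55 in the oligodendrocyte gate, 0.06 in the astrocyte gate and 0.17 in the other nuclei. Among members most of its fragments lay in long-gene nuclei, with 25 and 62 fragments (1.80, 1.11 to 2.53), while compact-marker nuclei had 8 and 11 fragments (0.86, -0.59 to 2.38), under the minimum of 100. Of the 73 stroke fragments 10 lay in 1 nucleus.

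**Figure D5:**
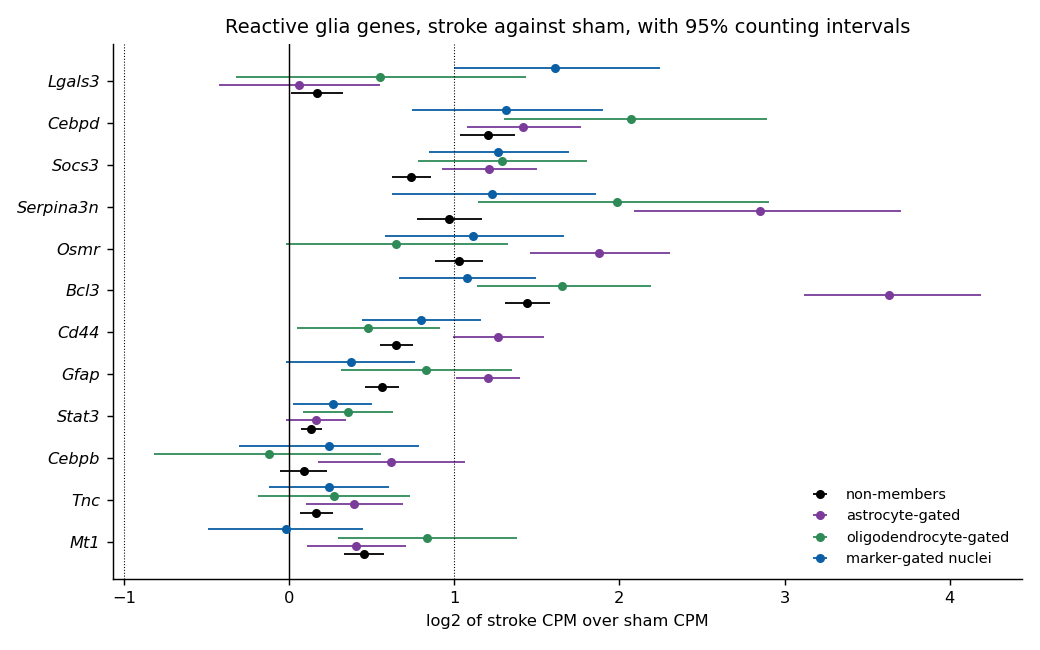
Log2 ratio of stroke over sham CPM (x axis) at the 12 reactive glia genes with at least 100 fragments in members, for marker-gated nuclei (blue), the oligodendrocyte gate (green), the astrocyte gate (purple) and non-members (black), with 95% counting intervals and dotted lines at a fold of 2. In members 6 genes lie past the dotted line, and Bcl3 reaches 3.63 in the astrocyte gate against 1.08 in members.

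Genes of the other functional lists did not pass the fold over all members. This held for 17 lineage transcription factors, 12 growth factor receptors, 16 extracellular matrix genes, 14 glutamate receptor genes, 9 antigen presentation and interferon genes, 16 cell cycle genes, 14 AP-1 and immediate early genes and 13 hypoxia and glycolysis genes. By log2 ratio, the most covered were Sox5 at 0.22, Nfib at 0.16 and Nfia at 0.35 of the transcription factors, and Fgfr2 at -0.01, Ntrk2 at -0.15 and Ntrk3 at -0.14 of the receptors. Of the matrix genes Tnr was at -0.12, Chst11 at 0.12 and Ptprz1 at 0.60, and of the glutamate receptors Grin2b was at -0.14, Grik4 at -0.24 and Grin2a at -0.47. Nlrc5 (0.59) and Stat2 (0.34) were among the most covered of the interferon list, and Ccnd2 (0.56), Mcm4 (0.01) and Cenpf (0.27) led the cell cycle list, Egr1 (-0.26), Junb (0.26) and Jun (-0.01) the immediate early list, and P4ha1 (-0.20), Slc2a1 (-0.09) and Ddit4 (-0.08) the hypoxia list. Of 15 oligodendrocyte genes 7 had enough fragments. Against 0.443% of all genes, 2 of these 7 were higher by the fold in stroke members. They were Cldn11 at 7.73 and 21.0 CPM, which had 38 sham and 75 stroke fragments, 14 of these in 1 nucleus, and would not have reached 100 at its sham level, and Mobp, a myelin protein, at 22.0 and 45.2 CPM. In compact-marker nuclei 0 of 4 such genes with enough fragments were past the fold, and in long-gene nuclei 1 of 4 was, where 0.445% of all genes were higher. The oligodendrocyte gate was passed by 8.83% of sham and 12.8% of stroke members, and its part in these values was not tested. Of 18 further OPC genes, here with Lims2, which overlaps the Gpr17 window, 0 were past the fold in members and 1 of 15 was in compact-marker nuclei, where 0.475% of all genes were higher. That was Sox10, which reached 100 only through its stroke fragments, with 44 in sham and 79 in stroke, a log2 ratio of 1.25 (0.70 to 1.81) and hits in 20.8% and 41.6% of nuclei, while the other kept nuclei had a log2 ratio of 0.09. Of the functional lists in compact-marker nuclei, Erbb3 was higher in stroke at 29.7 and 59.9 CPM (1.01, 0.44 to 1.59) and Ncan lower at 60.2 and 28.6 CPM (-1.07, -1.70 to -0.47), each reaching 100 fragments only through the library in which it was high, and the receptor Kit, which lies near Pdgfra, lower at 86.5 and 42.9 CPM (-1.01, -1.52 to -0.52).

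Over all genes, ordered by the bound of the interval nearest 0, the leading genes higher in stroke members were Skint5, Bin2 and Skint6. Of those named in this paragraph, Tnfrsf1a and Ggta1 would have reached 100 fragments at their sham level, and the others passed only through their higher stroke level. Skint5 and Skint6, members of an immunoglobulin-like gene family, were at 6.92 and 28.0 CPM and at 7.53 and 25.8 CPM. Both were higher in the other kept nuclei as well (log2 ratios of 1.39 and 1.27, against 2.02 and 1.78 in members). Tnfrsf1a, the TNF receptor 1, went from 13.2 to 33.9 CPM, a log2 ratio of 1.36 (0.91 to 1.82), with hits in 11.7% of sham and 27.6% of stroke members and a log2 ratio of 0.85 in the other kept nuclei. Compact-marker nuclei had 20 and 50 fragments there, under the minimum of 100, with a log2 ratio of 1.73 (0.95 to 2.55). Bin2, a blood cell protein, had a log2 ratio of 1.79, with 20 of 93 stroke fragments in 1 nucleus. Others were Msn, moesin, which ties membrane to actin (1.64), Lgals3, the glycosyltransferase Ggta1 (1.41), Fam111a (1.53, with 23 of 69 stroke fragments in 1 nucleus) and the elastase Cela1 (1.48). In the other kept nuclei Msn and Ggta1 were at 1.02, Bin2 at 0.46, Fam111a at 0.37 and Cela1 at 0.32. The astrocyte gate had Cela1 at 1.59, Ggta1 at 1.28 and Msn at 1.25, with Bin2 and Fam111a under the minimum. In compact-marker nuclei all 5 were under it. Msn was at 0.60 (-0.53 to 1.74) there, Fam111a at 0.50 (-0.65 to 1.66), Ggta1 at 0.96, Bin2 at 1.56 and Cela1 at 1.99.

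By the same bound, leading genes lower in stroke members included Tsks, a testis kinase substrate, at 33.6 and 12.6 CPM (-1.41, log2), Zfp867 (-1.64), Grtp1 (-1.38, with 30 of 172 sham fragments in 1 nucleus), the crystallin Crybb3 (-1.54), the inhibin subunit Inhbe (-1.34), Padi4 (-1.40), the chemokine receptor Ccr7 (-1.24, and 0.18, -1.06 to 1.40, from 14 and 12 fragments in compact-marker nuclei), Cpn1 (-1.14), and Tspan3 (-1.04) and Cplx3 (-1.31), which lie within 1 Mb of a marker. None of them is a gene of the OPC lists. Tsks, Grtp1, Cpn1 and Tspan3 would have reached 100 fragments at their stroke level, and the others passed only through their higher sham level. Tsks was at 0.14 when 1 kb on either side of start sites was read.

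In compact-marker nuclei alone, several of the leading differences came from few nuclei. Of the genes named in this paragraph, Adamtsl1 and Lingo1 alone would have reached 100 fragments at the level of the lower library. Of 104 stroke fragments at Pappa 47 lay in 1 nucleus, and of 98 at Lama1 33 did. Spread over more nuclei was Fa2h, which makes the hydroxylated lipids of myelin, at 37.2 and 88.5 CPM with hits in 30.0% and 47.5% of nuclei. Spidr (1.37), Grb10 (1.37), Adamtsl1 (1.03) and Fli1 (1.26) were also in the higher set by log2 ratio. The lower set included Abcc8, a subunit of potassium channels, at 79.1 and 19.7 CPM with hits in 35.8% and 13.9% of nuclei, Eng (-1.84, with 25 of 85 sham fragments in 1 nucleus), Frmpd2 (-1.58), Polr3c (-1.69), Ankrd27 (-1.54) and Prr14l (-1.45), as well as Lingo1 (-1.38), Ptpn9 (-1.53) and Tspan3 (-1.52), which lie near a marker.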

How the data were processed

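Chromatin accessibility was measured by scATAC-seq in 1 sham and 1 stroke library. The authors aligned the reads with Cell Ranger ATAC 2.1.0 to mm10 (the processing notes also name Cell Ranger ARC) and deposited fragment lists and per-barcode counts, without normalization. Called barcodes with 1000 to 100000 fragments in peaks and over 20% of fragments in peaks were kept (5949 of 6979 in sham, 4380 of 8740 in stroke, with 72184805 and 51555027 fragments). From the deposited counts, fragments over gene bodies and 2 kb upstream (GENCODE gene models of the same build) were summed per group in Python 3.11.15 with NumPy 2.4.6, SciPy 1.17.1 and pandas 2.3.3. Ratios have exact conditional binomial intervals, CPM exact Poisson and shares exact Clopper-Pearson intervals. The gate and the calls were tested on simulated data with independent Poisson counts. These had no separate loci and no clustering of fragments within a nucleus. They therefore do not bear on the unequal weight of the markers or on genes led by single nuclei. "Called" means past a fold of 2, with at least 100 fragments over both libraries, or past 1.5 or 2 times the other nuclei with at least 10 fragments expected.

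Members, gene lists and alternatives were chosen with earlier results of these data known. Named genes were the markers, list members past the fold or the 3 with the most fragments, and the 10 protein-coding genes in each direction whose interval lay farthest from 0. The bins with the highest member ratio, also named by that rule, are in the closing section. Alternatives changed the threshold, markers, windows, scaling, fragment minimum and depth. Some genes that the rule names are not reported here.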

Additional observations from a re-analysis of the deposited data

How the results depend on the processing

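Each condition had 1 library, so no library could be left out; markers were left out in turn instead, which gave member shares of 5.24% to 6.59% in sham and 6.005% to 6.92% in stroke, the lowest without Megf11. No paired analysis was possible because a single sample stood on either side. The member share, 6.47% in sham and 6.94% in stroke, was 10.1% and 11.4% with a threshold of 2, 4.64% and 4.22% with 4, 5.85% and 6.16% with at least 10 marker fragments, 3.68% and 4.86% without Lhfpl3, Megf11 and Vcan, 0.336% and 0.320% with 1 kb on either side of start sites, 4.58% and 5.00% with nuclei thinned to 5000 fragments, and 1.71% and 2.76% without nuclei in which 1 marker held over 50% of the marker fragments. The 5 of 17 further OPC genes at 1.5 times became 2 without nuclei that pass another gate, 11 with start-site windows and 12 in compact-marker nuclei.

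For stroke against sham, the 60 higher and 40 lower genes became 156 and 94 with at least 50 fragments, 10 and 5 with 200, 1979 and 823 with no minimum, 100 and 24 scaled to start sites, 1 and 12 with start-site windows, 29 and 96 in compact-marker nuclei, and 39 and 5 with at most 3 fragments per nucleus and gene; 9 were higher after thinning, and 76 were lower with a threshold of 4. The 6 higher genes of the 9 functional lists, all of reactive glia, became 2 with 200 fragments, 1 with start-site windows, 3 without nuclei of other gates, 0 after thinning and 2 in compact-marker nuclei; the 0 lower genes became 1 with no minimum, 1 without nuclei of other gates and 2 in compact-marker nuclei. The reactive glia genes alone became 2 with 200 fragments, 1 with start-site windows, 2 with a threshold of 4, 1 without nuclei of other gates, 0 after thinning and 0 in compact-marker nuclei, whereas their summed log2 ratio stayed between 0.62 and 0.76 in all alternatives. Of the named genes, Tsks turned to 0.14 with start-site windows and Ccr7 to 0.18 in compact-marker nuclei. Others kept their direction but moved beyond their interval: 7 with start-site windows, 8 after thinning, 8 in compact-marker nuclei and 1 each with a threshold of 4, without nuclei of other gates and with at most 3 fragments per nucleus. The 28.7% of member bins held in stroke, marker neighbourhoods included, became 31.7% when chosen in stroke and read in sham, 26.2% in 1 kb bins, 63.7% with 20 cut sites and 61.7% in compact-marker nuclei. The cause of these differences was not tested, except that smaller minimums test more genes and smaller groups have fewer fragments. Thinning and 1 kb windows leave few fragments per gene, so a fold of 2 at a single gene is not resolved there.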

Other observations

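The 10 autosomal bins with the highest ratio in all sham members, over 10 or more cut sites, lay nearest to Ndufa4, Apbb1ip, Auts2, Cilp, Arhgap24, Rpl10-ps3, Piezo2, Nr4a2, Nipsnap3b and Wif1. Their sham excess came from 2 to 6 member nuclei each, and the stroke members had 0 to 10 cut sites in them, with 0 in 3 of the bins. The bin near Nr4a2, a nuclear receptor gene, had 10 cut sites in 6 sham members and 10 in 7 stroke members, and the bin in an intron of Wif1, which encodes a Wnt inhibitor, had 12 in 2 sham members and 5 in 3 stroke members. The Cilp bin lies within 1 Mb of Megf11.

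Other leading genes of compact-marker nuclei came from outside the OPC lists. Sema3d, a secreted guidance cue, was at 76.4 CPM against 24.1 in the other sham nuclei (3.17 times) and at 75.1 against 33.3 in stroke (2.25 times). Zcchc24 was at 3.08 and 2.97 times and the tetraspanin Cd82 at 3.30 and 1.91 times. These genes were chosen after their sham values had been seen.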
